A study of Mus musculus with 9 samples.

Results

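The E2F and DP transcription factors were followed as a family of 10 genes, E2f1 to E2f8, Tfdp1 and Tfdp2, matched by symbol among the 15552 protein-coding genes of a mouse RNA sequencing count table. All 10 were listed there, 9 had enough counts to be tested, and E2f6 was close to 0 in every library. The cells were MyC-CaP, a single mouse line from a prostate tumor that carries a MYC transgene under a promoter active in prostate epithelium. They were kept without serum and calcium for 6 to 12 h and then given recombinant NRG1, which binds the receptor HER3, at 15 ng/mL. RNA was taken at 0, 12 and 24 h, in 3 libraries labelled as biological replicates per time point. Wells of 1 plating may have served as replicates, so p-values measure the spread between these libraries. Hours in the starvation medium and hours with NRG1 rose together, and their effects cannot be told apart here.

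E2F proteins bind DNA as dimers with a DP protein, encoded by Tfdp1 or Tfdp2, and control the genes that carry a cell from G1 into S phase. E2f1, E2f2 and E2f3 encode activators that are held in check by the retinoblastoma protein until cyclin-dependent kinases phosphorylate it. E2f4 and E2f5 encode repressors that work with the pocket proteins p107 and p130, and E2f6 encodes one that acts through a Polycomb complex. E2f7 and E2f8 encode atypical repressors, which bind DNA without a DP partner and are themselves E2F targets in many cell types.

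Total counts lay between 28467089 and 39239760 per library. The prostate homeobox gene Hoxb13, between 81.3 and 106 CPM (counts scaled to library size by TMM), and the luminal keratin gene Krt8, between 17.3 and 26.2 CPM, were present in every library. The epithelial adhesion genes Epcam and Cdh1 were nearly absent, with 3 and 14 counts over the 9 libraries, and the keratin gene Krt18 stayed at or below 0.491 CPM. These defining epithelial markers go against calling the cells epithelial-like. Of the 4 fibroblast markers, Pdgfra alone had more than 3 counts in every library (14.8 to 17.7 CPM), and Col1a1, Col1a2 and Col3a1 were at or near 0. The summed basal, leukocyte and endothelial markers stayed at or below 0.421, 1.05 and 0.299 CPM in every library. In bulk RNA, fewer cells expressing a gene and less RNA per cell cannot be told apart.

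Per length of exon, the family was led at 0 h by Tfdp1, at 44.9 ± 1.87 CPM per kb (SD, n = 3), and E2f4, at 44.2 ± 0.746 CPM per kb. The ranges of this pair overlapped. Length, here and in the ratios below, counts all annotated exons of a gene merged, whichever transcripts were expressed. In a middle tier, E2f1 stood at 5.57 ± 0.311 and E2f5 at 5.57 ± 0.217 CPM per kb, followed by E2f3 at 4.89 ± 0.213 and Tfdp2 at 4.65 ± 0.111 CPM per kb. Within this tier E2f1 overlapped E2f5 and E2f3 overlapped Tfdp2, while E2f5 and E2f3 did not overlap. The lowest tier held E2f2 at 1.8 ± 0.298, E2f8 at 1.47 ± 0.0879 and E2f7 at 1.3 ± 0.198 CPM per kb, and each overlapped its neighbor. Averaged over the 9 libraries, Tfdp1 and E2f4 lay at percentiles 92 and 91 of the 11369 tested genes with a known length, E2f1 at 50, E2f2 and E2f8 at 25 and E2f7 at 21. A repressor transcript, E2f4, was therefore the most abundant E2F per length at 0 h.

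**Figure D1:**
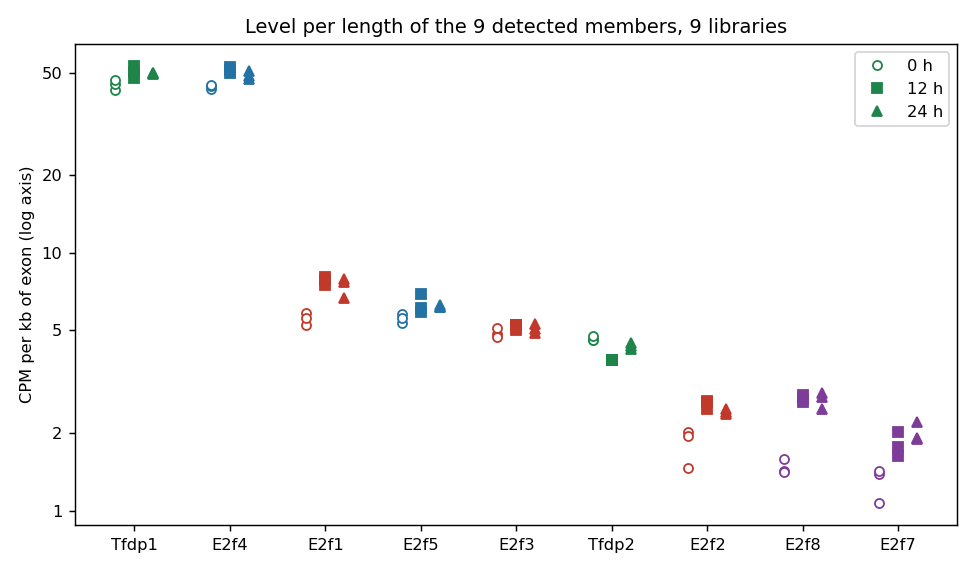
Level of the 9 detected members in CPM per kb of exon, on a log axis, with 1 symbol per library, ordered by the mean at 0 h. Red marks activators, blue canonical repressors, purple atypical repressors and green dimerization partners. Tfdp1 and E2f4 stand near 50 CPM per kb, and no other member passes 8.09.

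E2f6, at chr12:16810963-16839742 on the plus strand of GRCm38, gave 5 counts in all. At 0 h the libraries held 1, 2 and 0 counts, at 12 h 0, 0 and 2, and at 24 h 0, 0 and 0. No library exceeded 3 counts, the upper limit that a count of 0 allows, which corresponded to 0.0764 to 0.106 CPM and covers counting error only. The neighboring genes were measured at ordinary depth, with 270 to 401 counts for Greb1 and 6047 to 9097 for Rock2. None of the exonic bases of E2f6 overlapped another gene, and 0% of its 50-base stretches occurred in transcripts of other annotated genes. Copies outside annotated transcripts were not searched for. No fold change is given for E2f6.

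Promoter sequence was available from RefSeq (GRCm38.p6) for 8 of the 10 members, as 12 windows from 250 bases before to 50 bases after a start site. E2f4 and E2f5 were not among them. The windows were searched on both strands for the E2F words TTTCCCGC, TTTCGCGC, TTTGCCGC and TTTGGCGC, for the same words without their leading T (which the longer words contain), for the CHR element TTTGAA bound by the MuvB complex, and for CCAAT boxes. An 8-letter E2F word lay in at least 1 window of E2f2, E2f3, E2f7 and Tfdp1, and in 2.26% of all 32851 windows. The 7-letter form, present in 9.57% of all windows, also occurred in the E2f8 window, and E2f7 held 3 copies. E2f3 and E2f8 had a CHR element (17.9% of all windows), and so did a window of E2f2 whose start site lay 8388 bases inside the annotated gene, while its window near the 5′ end had none. The start site of the E2f1 window lay 466 bases inside the annotated gene and those of the Tfdp2 windows 62430 and 62973 bases inside, so that the annotated 5′ ends of these genes were not covered. A match is a description of the letters only. The stretches that hold these words are shown for the atypical repressors, the members that passed 1.5-fold at 12 or 24 h, and for E2f3 and Tfdp1. For E2f2 the stretch is the one around its E2F word just after the RefSeq start. Capitals mark E2F words, CHR elements and CCAAT boxes on either strand.
E2f7, chr10:110745214-110745358, plus strand: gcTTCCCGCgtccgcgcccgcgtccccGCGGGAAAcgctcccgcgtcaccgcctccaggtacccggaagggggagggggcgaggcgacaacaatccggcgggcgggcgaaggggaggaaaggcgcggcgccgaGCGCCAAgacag
E2f8, chr7:48881597-48881726, minus strand: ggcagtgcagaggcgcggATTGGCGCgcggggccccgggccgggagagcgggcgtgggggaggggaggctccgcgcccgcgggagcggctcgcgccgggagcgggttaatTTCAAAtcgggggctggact
E2f3, chr13:29986064-29986163, minus strand: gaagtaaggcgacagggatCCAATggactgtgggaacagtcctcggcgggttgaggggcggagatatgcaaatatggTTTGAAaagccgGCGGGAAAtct
Tfdp1, chr8:13338651-13338750, plus strand: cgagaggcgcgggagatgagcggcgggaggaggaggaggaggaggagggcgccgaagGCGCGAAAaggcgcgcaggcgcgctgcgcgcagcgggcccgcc
E2f2, chr4:136172298-136172323, plus strand: tttggcggcatatagTTTGGCGCtaa

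In E2f8 the E2F word TTGGCGC, at bases -111 to -105 from the start site, overlapped a CCAAT box on the opposite strand at -112 to -108. The CHR element lay at -20 to -15. CCAAT boxes occurred in 37.4% of all windows, and also in windows of E2f2, E2f3 and E2f7. E2f3 carried a CHR element at -23 to -18 and an E2F word at -11 to -4. In E2f7 the 3 E2F words began at -223, -198 and -92.

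At 12 h, 6 of the 9 tested members had risen over 0 h at an adjusted p of at most 0.05 in edgeR's quasi-likelihood test, and Tfdp2 alone had fallen. Of all 11373 genes tested, 13.6% rose and 11.9% fell in this comparison. E2f8 was the only member past 1.5-fold as well, which 1.34% of all genes reached upward. The values at 12 h did not overlap those at 0 h for 8 members, against 38.4% of all genes. At 24 h, 6 members were higher than at 0 h (9.67% of all genes) and 0 were lower (7.76% of all genes). No member fell at 24 h in DESeq2 either, and the number of members at an unadjusted p under 0.05 was 7 in either direction, Tfdp2 being the lower one. E2f7 and E2f8 passed 1.5-fold (1.68% of all genes, upward), and 8 members did not overlap (35.5% of all genes). The median log2 fold change of the 9 members was 0.21 at 12 h and 0.16 at 24 h, beside -0.0028 and -0.0065 for all genes. The comparisons at 12 and 24 h share the 0 h libraries. An omnibus test over the 3 time points was passed by 7 members, all but E2f3 and E2f5, against 27.4% of all genes.

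**Figure D2:**
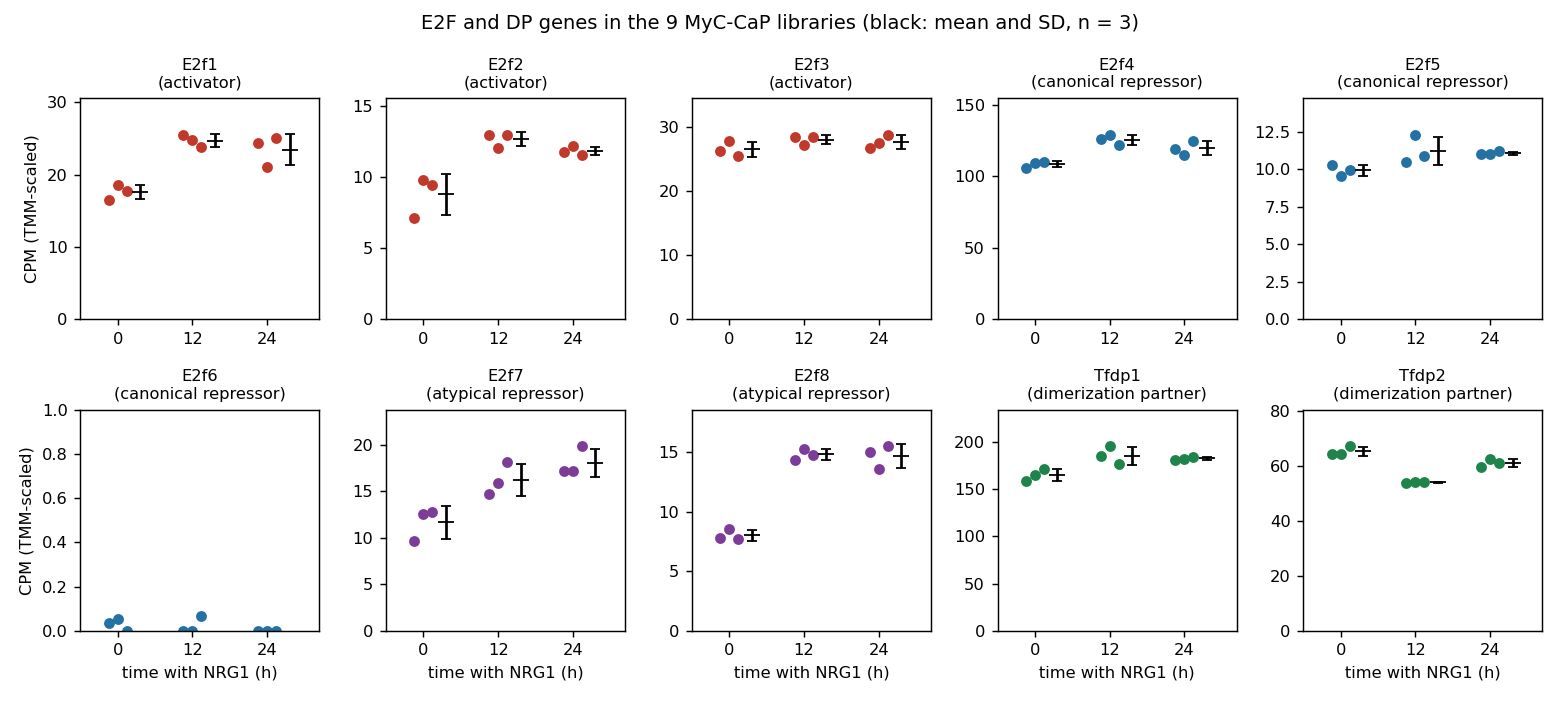
CPM of each member in the 9 libraries by hours with NRG1, each panel starting at 0. Points are libraries, black bars are mean and SD (n = 3), with none drawn for E2f6. E2f8 lies between 7.7 and 8.58 CPM at 0 h and at or above 13.6 CPM later, whereas E2f3 overlaps at all times.

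**Figure D3:**
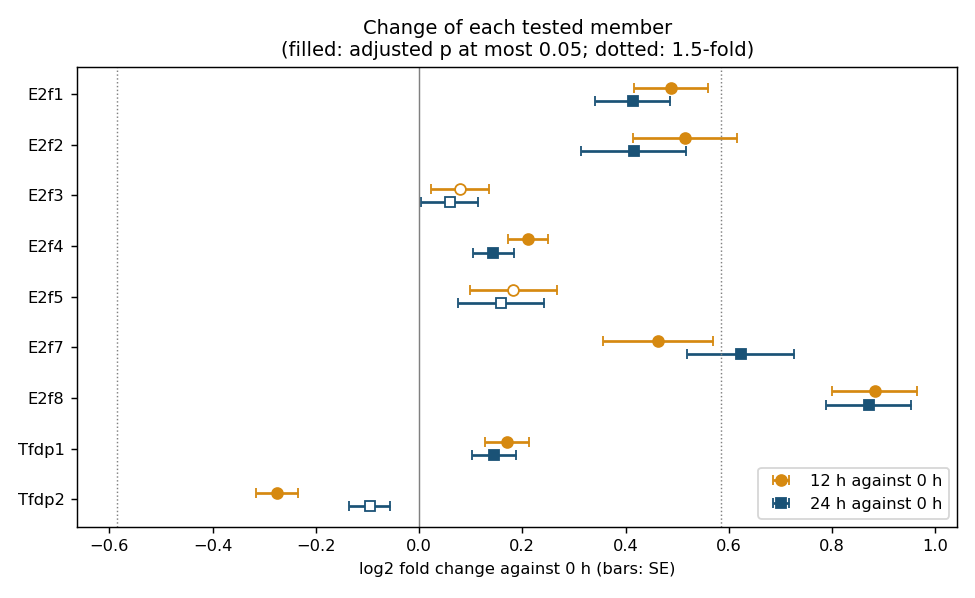
Log2 fold change of the 9 tested members at 12 h (circles) and 24 h (squares) against 0 h, with SE. Filled symbols passed an adjusted p of 0.05, dotted lines mark 1.5-fold, and E2f8 lies beyond the line at both times.

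E2f1 (chr2:154559407-154569892, minus strand) encodes the activator most often taken as the marker of free E2F activity. Its libraries held 16.5, 18.5 and 17.7 CPM at 0 h, 25.5, 24.8 and 23.8 CPM at 12 h and 24.4, 21 and 25 CPM at 24 h. Every treated library exceeded every 0 h library, and the values at 12 and 24 h overlapped. E2f1 rose 1.4-fold at 12 h and 1.33-fold at 24 h. On the log2 scale the changes were 0.49 ± 0.0724 (SE, adjusted p = 0.000115 in edgeR) and 0.41 ± 0.0724 (adjusted p = 0.000684 in edgeR). Between 12 and 24 h it differed by -0.07 on the log2 scale (95% interval -0.22 to 0.07, edgeR adjusted p = 0.609).

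E2f2 (chr4:136172394-136196057, plus strand), an activator with a lower transcript level, gave 7.13, 9.81 and 9.47 CPM at 0 h. Its values were 13, 12.1 and 13 CPM at 12 h and 11.8, 12.2 and 11.6 CPM at 24 h. All treated libraries lay above the 0 h libraries, of which replicate 1, the library with the lowest total, was the lowest. The rise was 1.43-fold at 12 h (0.52 ± 0.101, edgeR adjusted p = 0.00127) and 1.33-fold at 24 h (0.42 ± 0.101, edgeR adjusted p = 0.00875). Without 0 h replicate 1 the log2 fold change was 0.4 at 12 h and 0.3 at 24 h, still past the test. Without 0 h replicate 2 it was 0.61 at 12 h, which exceeds 1.5-fold.

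E2f3 (chr13:29906575-29986063, minus strand), an activator gene whose locus encodes a longer and a shorter isoform, gave 26.3, 27.8 and 25.5 CPM at 0 h. It gave 28.5, 27.2 and 28.4 CPM at 12 h and 26.7, 27.5 and 28.8 CPM at 24 h. The groups overlapped at both times. The log2 fold change was 0.08 at 12 h (95% interval -0.04 to 0.2, edgeR adjusted p = 0.329) and 0.06 at 24 h (-0.06 to 0.18, edgeR adjusted p = 0.53). Gene-level counts do not separate its isoforms. Within libraries, the ratio of E2f1 to E2f3 per kb was 1.14 ± 0.0552, 1.52 ± 0.0659 and 1.46 ± 0.133 at 0, 12 and 24 h, with no overlap between 0 h and either later time.

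E2f4 (chr8:105297663-105305370, plus strand), the main pocket protein partner in resting cells, held 106, 109 and 110 CPM at 0 h, 126, 129 and 122 CPM at 12 h and 119, 115 and 125 CPM at 24 h. All treated libraries were above the 0 h libraries, by a small margin for 24 h replicate 2. E2f4 rose 1.16-fold at 12 h (0.21 ± 0.0393, edgeR adjusted p = 0.000858) and 1.1-fold at 24 h (0.14 ± 0.0393, edgeR adjusted p = 0.0178). The 24 h call was lost without 0 h replicate 1 (log2 fold change 0.13) and without 24 h replicate 3 (0.12), with an adjusted p of up to 0.102 in edgeR.

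E2f5 (chr3:14578641-14606309, plus strand), a repressor related to E2f4, gave 10.3, 9.52 and 9.96 CPM at 0 h, 10.5, 12.3 and 10.9 CPM at 12 h and 11, 11 and 11.2 CPM at 24 h. No later library overlapped the 0 h range, yet neither comparison passed. Its log2 fold change was 0.18 at 12 h (95% interval 0.01 to 0.36, edgeR adjusted p = 0.125) and 0.16 at 24 h (-0.02 to 0.34, edgeR adjusted p = 0.215).

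E2f7 (chr10:110745439-110787384, plus strand), the atypical repressor with 3 E2F words in its promoter window, gave 9.62, 12.5 and 12.8 CPM at 0 h. Its libraries reached 14.7, 15.9 and 18.1 CPM at 12 h and 17.2, 17.2 and 19.8 CPM at 24 h. Both later groups lay above 0 h and overlapped each other, and 0 h replicate 1 was again the lowest library. E2f7 rose 1.38-fold at 12 h (0.46 ± 0.106, edgeR adjusted p = 0.00401) and 1.54-fold at 24 h (0.62 ± 0.104, edgeR adjusted p = 0.00047). The 24 h log2 fold change fell below the 1.5-fold line without 0 h replicate 1 (0.51) and without 24 h replicate 3 (0.55), still past the adjusted p.

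E2f8 (chr7:48866429-48881596, minus strand), the partner of E2f7 among the atypical repressors, changed most of the 9 tested members. It held 7.81, 8.58 and 7.7 CPM at 0 h, 14.4, 15.3 and 14.8 CPM at 12 h and 15, 13.6 and 15.5 CPM at 24 h. The treated libraries stood well apart from the 0 h libraries and overlapped each other. The rise was 1.84-fold at 12 h (0.88 ± 0.0825, edgeR adjusted p = 1.91e-06) and 1.83-fold at 24 h (0.87 ± 0.0822, edgeR adjusted p = 1.74e-06). The 15 alternative settings gave log2 fold changes of 0.86 to 0.94 at 12 h and of 0.83 to 0.93 at 24 h. Of its exonic bases, 11.2% lie opposite Gm2788, and 8.26% of its 50-base stretches occur, on either strand, in that gene's transcripts. Both shares may describe the same overlap. As the strand setting of the counting was not stated, whether reads over this overlap raised or lowered the E2f8 counts is unknown. No counts were given for Gm2788.

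Tfdp1 (chr8:13338751-13378448, plus strand), encoding the more abundant DP partner, held 158, 165 and 171 CPM at 0 h, 185, 195 and 176 CPM at 12 h and 181, 182 and 184 CPM at 24 h. No treated library reached down to the 0 h range. Tfdp1 rose 1.13-fold at 12 h (0.17 ± 0.0423, edgeR adjusted p = 0.00717) and 1.11-fold at 24 h (0.15 ± 0.0423, edgeR adjusted p = 0.0245). Of its 50-base stretches, 16.8% are shared with Gm7390, so its level is uncertain by the reads that both could claim. At 24 h Tfdp1 still passed in 10 of 15 alternative settings. The others each left out 1 library and gave an adjusted p of up to 0.0997 in edgeR.

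Tfdp2 (chr9:96196275-96323646, plus strand), encoding the other DP partner, was the exception. It held 64.3, 64.5 and 67.1 CPM at 0 h, 53.9, 54.1 and 54 CPM at 12 h and 59.6, 62.7 and 60.9 CPM at 24 h. The 3 groups were all separate, lowest at 12 h. Tfdp2 fell by 0.27 on the log2 scale at 12 h (SE 0.0409, edgeR adjusted p = 0.000121) and rose again between 12 and 24 h, by 0.18 (SE 0.041, edgeR adjusted p = 0.0185). Its 24 h level differed from 0 h by -0.1 (95% interval -0.18 to -0.01, edgeR adjusted p = 0.118).

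Between 12 and 24 h, Tfdp2 was thus the only member past the test, as a rise (1.97% of all genes rose, 3.06% fell), and also the only one whose groups did not overlap (25% of all genes). That call was lost without 12 h replicate 1, 24 h replicate 2 or 24 h replicate 3, with an adjusted p of up to 0.105 and a log2 fold change of at least 0.16 in edgeR. No member passed 1.5-fold (0.29% of all genes, either direction), in edgeR or in DESeq2, and 1 member had an unadjusted p under 0.05.

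Ratios within a library do not depend on depth or scaling. Atypical repressor transcript per activator transcript, the summed CPM per kb of E2f7 and E2f8 over that of E2f1, E2f2 and E2f3, was 0.217, 0.228 and 0.232 at 0 h. It was 0.267, 0.298 and 0.306 at 12 h and 0.31, 0.31 and 0.324 at 24 h, and none of the 3 groups overlapped. The canonical repressors E2f4 and E2f5 per activator had lower means at later times, with 4.07 ± 0.207 at 0 h, 3.69 ± 0.162 at 12 h and 3.68 ± 0.0579 at 24 h. For this ratio the groups overlapped at 12 h but not at 24 h against 0 h.

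The atypical repressors were also set singly against E2f1. E2f8 per E2f1 was 0.265 ± 0.0112, 0.349 ± 0.0193 and 0.364 ± 0.00948 at 0, 12 and 24 h, both later groups being separate from 0 h. E2f7 per E2f1 was 0.232 ± 0.0257, 0.231 ± 0.0326 and 0.27 ± 0.0211, with overlap at both times. E2f8 per E2f7 was 1.16 ± 0.177, 1.53 ± 0.146 and 1.35 ± 0.0854, separate from 0 h at 12 h but overlapping at 24 h. Tfdp1 per Tfdp2 was 9.65 ± 0.236, 13.1 ± 0.675 and 11.4 ± 0.265, with no overlap between any of the groups. The size of this ratio, though not its change over time, rests on merged exon lengths of 3.67 and 14 kb. Without length scaling, Tfdp1 and Tfdp2 averaged 165 and 65.3 CPM at 0 h. E2f1 per E2f4 was 0.126 ± 0.00525, 0.153 ± 0.0045 and 0.152 ± 0.00944, again separate from 0 h at both times. These ratios are descriptions. With 3 libraries against 3, a two-sided exact permutation test cannot go below p = 0.1, and none was run.

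**Figure D4:**
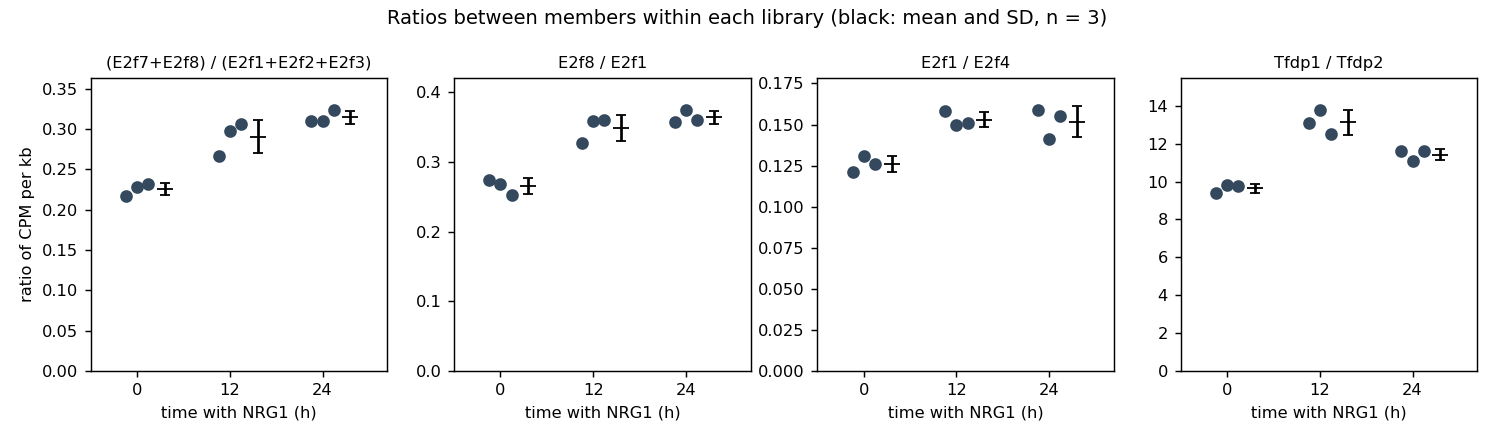
Ratios of CPM per kb between members within each library, by hours with NRG1, each axis starting at 0. Points are libraries and black bars mean and SD (n = 3). The ratio of atypical repressors to activators spans 0.217 to 0.232 at 0 h against 0.31 to 0.324 at 24 h, and the ratio of Tfdp1 to Tfdp2 is highest at 12 h.

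The genes whose log2 CPM followed E2f8 most closely over the 9 libraries were Rab31 (Pearson r = 0.997), the tubulin gene Tubb5 (0.996) and Mcm6, a subunit of the replicative helicase (0.992), among 8413 genes with a mean of at least 10 CPM. For E2f1 they included Magoh (0.981) and Taf5l (0.978), and for E2f4 the primase gene Prim1 (0.982) and Pgp (0.971). E2f7 was closest to Tmem184b (0.985), the centromere gene Mis18a (0.984) and the helicase gene Brip1 (0.981). For E2f2 the genes were Dcbld2 (0.979), Hmgcs1 of sterol synthesis (0.977) and Depdc5 (0.967). Tfdp1 was nearest to Smg5 (0.976), Ddx39 (0.967) and the lamin gene Lmnb2 (0.966), and Tfdp2 to Rnpepl1 (0.975), Mob3b (0.973) and Dvl3 (0.969). The 9 libraries fall into 3 time groups, so any gene that separates them the same way scores high.

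The pocket proteins bind and restrain E2Fs, and 2 of their 3 genes changed at 12 h in opposite directions. Rbl1, encoding p107, rose at both times. Its CPM was 19 ± 2.22, 31 ± 4.05 and 31.2 ± 0.572 at 0, 12 and 24 h, and the log2 changes were 0.7 and 0.71 (adjusted p = 2.96e-05 and 2.85e-05 in edgeR). Rbl2, encoding p130, the pocket protein of resting cells, fell by 0.21 on the log2 scale at 12 h (edgeR adjusted p = 0.00409) and differed by -0.13 at 24 h (edgeR adjusted p = 0.0618). Without 12 h replicate 3 the 24 h difference of Rbl2 passed, at an edgeR adjusted p of 0.039. Of the exonic bases of Rbl2 and Rb1, 21% and 14.9% lie opposite other genes. Rb1, encoding the retinoblastoma protein, differed by -0.03 and -0.11 and passed at neither time. The shares of all genes given above for each comparison are the background for these and the following lists.

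MuvB is the complex that p130 and E2f4 join in resting cells and that Mybl2 and Foxm1 join later in the cycle. Of the 7 genes of the MuvB core and its activators, 4 rose at 12 h and 4 at 24 h (13.6% and 9.67% of all genes). Mybl2 rose by 0.83 at 12 h and 0.64 at 24 h (edgeR adjusted p = 1.85e-07 and 2.4e-06), and Foxm1 by 0.48 and 0.69 (5.2e-05 and 1.9e-06). Of the core subunits, Lin54, which contacts the CHR element, rose by 0.39 and 0.63, and Lin9 by 0.35 and 0.53, all in log2 units. The 12 h call of Lin9 was lost without 0 h replicate 1, 0 h replicate 3 or 12 h replicate 2, at log2 fold changes of 0.31, 0.31 and 0.26.

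Cyclins and kinases that phosphorylate the retinoblastoma protein stayed within 1.5-fold. Of the 7 tested, 4 rose at 12 h and 2 at 24 h (13.6% and 9.67% of all genes). Ccne2 rose by 0.31 on the log2 scale at 12 h and Cdk2 by 0.22 at 12 h and 0.22 at 24 h. Ccnd3 rose by 0.17 at 12 h, and Ccnd1 by 0.14 at 12 h and 0.24 at 24 h. The 12 h call of Ccnd1 was lost without 0 h replicate 2 (0.12), 12 h replicate 1 (0.15) or 12 h replicate 2 (0.1). The 24 h call of Cdk2 was lost without 0 h replicate 1 or 24 h replicate 3 (0.19 each). Of the exonic bases of Ccnd1 and Ccne2, 23.4% and 17.4% lie opposite another gene. Ccnd2 had at most 3 counts in a library and was not tested.

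Among the 7 CDK inhibitors, 2 rose at 12 h and 2 at 24 h (13.6% and 9.67% of all genes). Cdkn1a, encoding p21, averaged 47.4 ± 6.52, 85.1 ± 12.5 and 56.8 ± 2.2 CPM at the 3 times. It rose by 0.84 at 12 h on the log2 scale (adjusted p = 7.82e-06 in edgeR) and fell by 0.58 from 12 to 24 h (adjusted p = 0.00152 in edgeR). Its 24 h difference from 0 h was 0.26 (edgeR adjusted p = 0.0653) and passed in 6 of 15 alternative settings. These were library totals as the scaling, no low-count filter, only the times compared, and fits without 0 h replicate 2 or without 12 h replicate 2 or 3, at log2 fold changes of 0.27 to 0.36. Cdkn2d, encoding p19 of the INK4 group, rose by 0.35 and 0.37, and Cdkn2b rose by 0.4 at 24 h. Cdkn1b and Cdkn2a lay within 0.07 of 0 at both times on the log2 scale.

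Of 6 genes for the turnover of E2F proteins, 4 rose at each time (13.6% of all genes at 12 h and 9.67% at 24 h). Fbxo5, encoding the inhibitor Emi1 of the anaphase-promoting complex and a known E2F target, rose by 0.81 at 12 h and 0.92 at 24 h (edgeR adjusted p = 8.5e-06 and 2.07e-06). Ccnf, encoding the cyclin F subunit that targets activator and atypical E2Fs, rose by 0.65 and 0.6. Fzr1 and Cdc20, which give the anaphase-promoting complex its targets, rose by 0.34 and 0.27 at 12 h and by 0.29 and 0.38 at 24 h. The 12 h call of Cdc20 was lost without 0 h replicate 1 (0.22), 0 h replicate 2 (0.26) or 12 h replicate 2 (0.17).

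The Polycomb partners of E2f6 had enough counts to be tested, although E2f6 itself did not. Of 7, 1 rose at 12 h (Rybp, 0.31) and 2 at 24 h (Rybp, 0.2, and L3mbtl2, 0.28). Of all genes, 13.6% rose at 12 h and 9.67% at 24 h. At 24 h the call of Rybp held in 5 and that of L3mbtl2 in 13 of 15 alternative settings, and 17.2% of the exonic bases of L3mbtl2 lie opposite another gene. Without 0 h replicate 3 or 24 h replicate 2 neither gene passed. Pcgf6 and Mga, which define the complex, stood at 45.3 ± 2.97 and 13.3 ± 0.4 CPM at 0 h and passed at neither time. Stag3, Smc1b and Tuba3a, germline genes on which E2f6 is known to act, had 1, 1 and 6 counts over the 9 libraries.

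Downstream, 35 of 36 G1/S target genes rose at 12 h and 35 at 24 h (13.6% and 9.67% of all genes). At each time 15 passed 1.5-fold (1.34% and 1.68% of all genes, upward). The median log2 fold change was 0.56 at 12 h and 0.56 at 24 h, higher than that of the 9 E2F and DP genes (0.21 and 0.16). The exception was Cdc25a, a phosphatase that activates CDKs, at 0.08 and 0.09 (edgeR adjusted p = 0.38 and 0.358). Cdc6, which loads the replicative helicase, rose most at 12 h, by 0.77, followed by the ribonucleotide reductase subunit Rrm2, by 0.74. At 24 h the kinase gene Melk rose by 0.72 and Rrm2 by 0.71. The smallest rises were those of the clamp loader subunit Rfc4, by 0.31 and 0.24. Between 12 and 24 h, 0 of the 36 passed in edgeR or in DESeq2, and 8 had an unadjusted p under 0.05. These genes had been listed with a rise of E2F targets in these libraries already known, so their direction is not independent evidence.

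**Figure D5:**
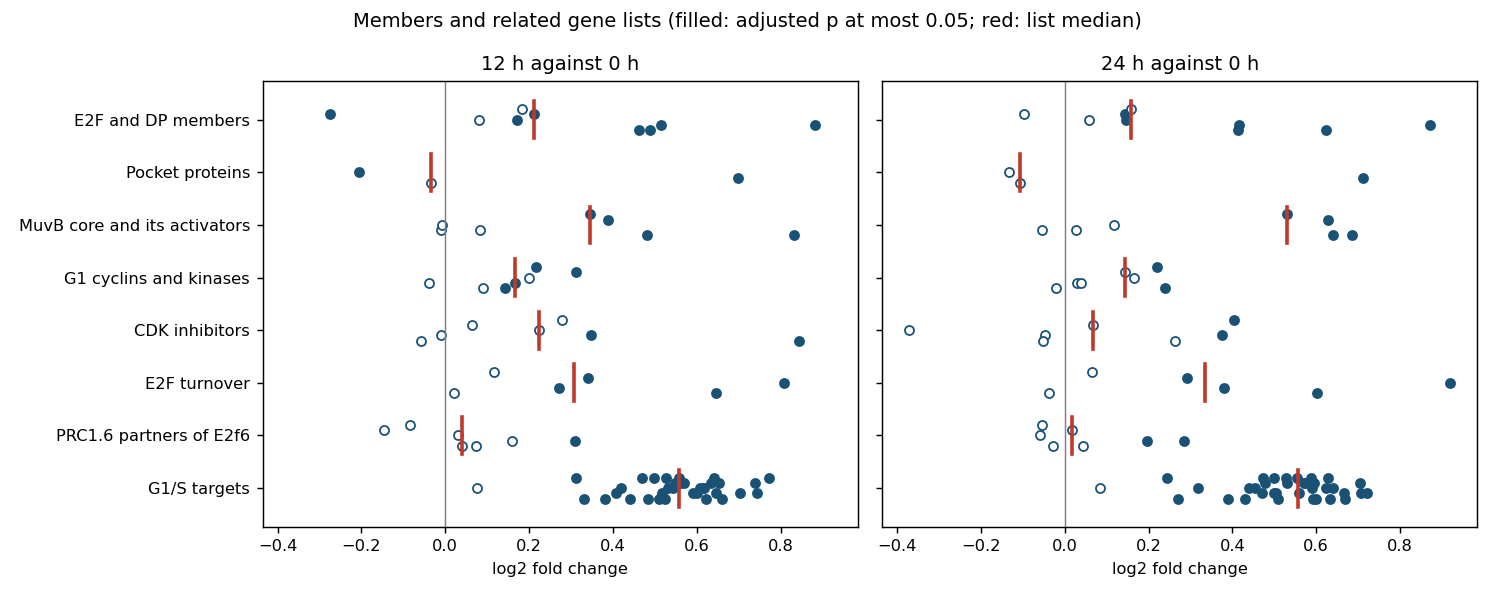
Log2 fold change of each tested gene at 12 h (left) and 24 h (right) against 0 h, by list. Filled points passed an adjusted p of 0.05 and red lines mark list medians. The G1/S targets cluster near 0.56, while the E2F and DP genes spread from -0.27 to 0.88 at 12 h.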

How the data were processed

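RNA sequencing was analysed for 9 MyC-CaP libraries, 3 at each of 0, 12 and 24 h of NRG1. Libraries were made with the TruSeq mRNA kit and read as 150-base pairs. The authors trimmed reads with Cutadapt 4.5, aligned them to GRCm38.p6 with STAR 2.7.11a and counted them per gene with featureCounts 2.0.2. The deposited values are raw counts for 15552 genes. Strand setting and treatment of multiply mapping reads are not given in the sources used here.

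Groups came from the time in the labels. Genes were filtered with filterByExpr (11373 kept), scaled by TMM and fitted over all 9 libraries in edgeR 4.0.16 (R 4.3.3) with glmQLFit. Pairs of times were compared with glmQLFTest, with Benjamini-Hochberg adjustment over all tested genes, an adjusted p of at most 0.05 and, for larger changes, a fold of at least 1.5. Each SE was derived from a gene's log2 fold change and F value. Log2 CPM used a prior count of 2. Exon lengths, overlaps and shared 50-base stretches came from a GENCODE annotation of the same build, in which 15541 identifiers matched. Procedures were tested on simulated data.

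All 10 members were named whatever their change. From 7 small gene lists any gene could be named, and from the G1/S targets the 2 largest and 2 smallest changes at each time. For each member past the omnibus test, the 3 genes with the most similar log2 CPM were taken, some of which, like 1 of the cell type markers, are not reported here. The members and lists were chosen with earlier results of these data known. The alternatives were DESeq2 1.42.0, other scalings, no filter, a test against 1.5-fold (glmTreat), a replicate block, only the times compared, and leaving out each library.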

Additional observations from a re-analysis of the deposited data

How the results depend on the processing

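Of 405 alternative values for the 9 tested members, 395 stayed on the same side of the threshold and 10, in the same direction, no longer passed. Of the 395, 5 changed sign, all between 12 and 24 h and near 0 (E2f3, E2f5, E2f8 and Tfdp1, at 0.01 to 0.05 in fits without 1 library), where the members had not passed in any of these fits. The 10 were the small changes of E2f4 and Tfdp1 at 24 h and of Tfdp2 between 12 and 24 h, each lost in fits that left out a library. When the test itself asked for more than 1.5-fold (glmTreat), 0 members passed at 12 h and 0 at 24 h against 0 h, and 1 member, E2f8, had an unadjusted p under 0.05 in each (adjusted p = 0.187 and 0.28 in edgeR). Leaving out a library gave 1 to 2 members past 1.5-fold at 12 h, 1 to 2 at 24 h, and 0 to 1 past the adjusted p between 12 and 24 h. The labels number the replicates alike at each time, and whether these numbers pair the libraries was not settled. The correlation of deviations between same-numbered libraries ran from -0.074 to 0.131, against -0.125 to 0.12 for others. For 4 of 9 libraries, the 2 highest correlations were both with their own number. The replicate 1 libraries correlated best with each other (0.049, 0.091 and 0.131), whereas same-numbered pairs of replicates 2 and 3 ran from -0.074 to 0.098. With the replicate block, 7 members passed at 12 h, as without it. Under other scalings the median log2 fold change of all genes lay between -0.0141 and 0.0161. E2f1, E2f2, E2f5, E2f7 and E2f8 rested on 201 to 980 counts per library, which limits their precision.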
